A study of Drosophila melanogaster with 3 samples.

Results

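The 257 regions described here are the peaks of Empty spiracles (Ems) chromatin immunoprecipitation whose summit lay at or just inside the start of a gene, in the optimal list deposited for dm6. A summit was taken when protein-coding transcription start sites (TSSs) of 1 strand only lay within 500 bp of it and the summit fell at or downstream of the nearest of them in the gene's direction. They made up 6.65% of the optimal list and 19.3% of its 1333 one-strand promoter summits (exact Clopper-Pearson 95% interval 17.2% to 21.5%). The other 1076 one-strand summits lay upstream of the nearest TSS, 780 summits lay at divergent promoters and 1753 lay further than 500 bp from a TSS. The 257 summits belonged to 253 genes, and *Trpm*, *Amun*, *Ubi-p63E* and *velo* held 2 summits each.

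The peaks come from chromatin immunoprecipitation followed by sequencing (ChIP-seq) of whole *Drosophila melanogaster* embryos of mixed sex, aged 0 to 24 hours, in 3 biological replicates and a single group. The embryos, of strain 16T-GFP, carried a transgene for Ems with GFP at its C-terminal end, and the tissues of pooled embryos were not separated. An antibody against GFP is named in the experiment description, while the antibody label reads ems, so whether untagged Ems was also recovered cannot be told apart. Sonicated fragments measured 200 to 800 bp. The control library is not analysed here. Read counts are absent from the lists, and the depth of each replicate is therefore unknown.

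Transcription by RNA polymerase II starts at the core promoter, where the initiator lies over the TSS, a TATA box lies before it and the downstream promoter element (DPE) lies after it, inside the transcribed region. In flies many widely expressed genes carry the DNA replication-related element (DRE) or motif 1 in place of these, and ribosomal protein genes start within a run of pyrimidines. Polymerase often pauses shortly after the start. Ems is a homeodomain protein of the head, brain, tracheal system and posterior spiracles, and homeodomains of this kind bind DNA with a TAAT core.

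A match in these sequences is a description of letters, not a site shown to be bound. The following stretches of 30 bases, from the RefSeq Release 6 sequence of the dm6 assembly, show what lay beside the summits. They run 5′ to 3′ in the gene's direction, and capitals mark the motif. The DRE (TATCGATA, a palindrome that contains the 6-mer ATCGAT) is shown for the 3 members with the highest signal that hold it within 100 bp of the summit, leaving aside 1 chromosome arm. It began 67, 53 and 65 bp before the TSS in *pug*, *Rnp4F* and *B52*, at chr3R:10696456-10696485 (+ strand), chrX:5322731-5322760 (− strand) and chr3R:13661235-13661264 (+ strand).
pug: caacgcacttgTATCGATAgctatcacaat
Rnp4F: gtgcgcacagcTATCGATAttacgcactgg
B52: cccgcccaaaaTATCGATAggcgaaaaagt
Motif 1 (GGTCACAC, searched on both strands) is shown for *RpL30* at chr2L:19009261-19009290, *indra* at chr3L:1342384-1342413 and *CG4098* at chr3L:16609366-16609395, all read from the − strand. *RpL30* held it on the gene strand, 27 bp after the annotated TSS nearest to the summit, with a further TSS ahead of the summit. The other genes held the reverse complement of motif 1, before the TSS.
RpL30: atccccccgtcGGTCACACcaacacaaacg
indra: aatgtaacttaGTGTGACCggaatgcgcaa
CG4098: tatgcggcctaGTGTGACCagctggtccta
The 6-mer CGGACG, a DPE-type sequence, is shown for *CG33695* at chr2L:11278044-11278073 (+ strand), *RpS4* at chr3L:13041820-13041849 (+ strand) and *Hakai* at chr2L:19582324-19582353 (− strand), where it began 35, 31 and 133 bp after the TSS.
CG33695: gttgaatagctgCGGACGcaaaactacgta
RpS4: tgtattgcccgaCGGACGgtatgtgtattt
Hakai: gaagcgcggccgCGGACGagggcgtggcac
The homeodomain palindrome TAATTA is shown for *PNPase* at chr3R:31404619-31404648, *CG12316* at chr3L:15136822-15136851 and *Cftr* at chr3R:24543186-24543215, all on the − strand.
PNPase: gattttgaccacTAATTAtttcttaaataa
CG12316: tgaatatttggaTAATTAcgtacggcgagc
Cftr: cgcctgaaatcaTAATTActaaccgaccga

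For ribosomal protein genes the capitals mark the 8 bases from −2 to +6, with the annotated TSS as +1. *RpL8* (chr3L:2587444-2587473, + strand) and *RpL7A* (chrX:6533239-6533268, − strand) had 8 pyrimidines in these 8 bases. *RpS4* (chr3L:13041789-13041818, + strand) had 7 and *RpS3A* (chr4:67190-67219, − strand) had 6. *RpL30* (chr2L:19009289-19009318, − strand) had 4 and *RpS30* (chr3R:20850504-20850533, + strand) had 3 at their nearest annotated TSS.
RpL8: atgtcttcctCTTTTCTTttcttttcgccc
RpL7A: ggaactgccaCTTCCTTTctttttcgttcc
RpS4: cgcccgcaaaTCTGCCTTttccttttcctg
RpS3A: gtcaacgtgaTTCGACCTtttccggtttat
RpL30: tttgtattaaTTGGTGGTattttctcgcat
RpS30: attgccagacATGCAAATgcaattcactaa

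Replicate 1 stood apart from the others in how many such summits it held. Each replicate's list was used down to as many of its highest-signal peaks as the optimal list holds. Of these peaks, 483 were downstream one-strand summits in replicate 1, 245 in replicate 2 and 287 in replicate 3. The matching counts upstream were 978, 1059 and 1053. The downstream share of one-strand summits was therefore 33.1%, 18.8% and 21.4%, or 24.4% ± 7.60 (SD, n = 3), and 20.1% over replicates 2 and 3 alone. This share depended on how far down each list was read. Among the 2000 highest peaks of each replicate it was 23.4%, 13.0% and 16.5%. With a limit of q 0.01, which left 3527, 4276 and 4599 peaks, it was 31.3%, 19.6% and 24.0%. Of the downstream summits of replicate 1, 225 (46.6%) overlapped no peak of the optimal list, against 24.9% in replicate 2 and 22.0% in replicate 3. Coding exons held 21.7% of the downstream summits of replicate 1, 5.71% of those of replicate 2 and 5.57% of those of replicate 3. What set replicate 1 apart was not tested.

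Positions of the 257 summits ran over the whole 500 bp that the rule allowed. The median position was 83 bp after the TSS, with quartiles at 32 and 220 bp, and 138 summits (53.7%) lay within 100 bp. These values depend on the 500 bp limit, since the median was 46.5 bp with a limit of 250 bp and 399 bp with one of 1000 bp, and it was 136 bp in the higher-signal 50% of the list. The median was 119 bp in replicate 1, 83 bp in replicate 2 and 79 bp in replicate 3 (93.7 ± 22.0 bp, SD, n = 3). Per base of sequence, summits were densest in the first 25 bp, at 2.12 per bp, and sparsest from 300 to 399 bp, at 0.18 per bp. From 400 to 500 bp there were 0.337 per bp. At the limit by the TSS, the nearest members were *Atxn7* at 0 bp and *RpL8* and *CG12106* at 1 bp, while *CG2811*, *RpL35A* and *Ziz* lay just outside, at −1 bp. At the far limit, *CG33725*, *Pi3K92E* and *Pdp1* lay inside at 500, 497 and 494 bp, and *wun*, *CG5854* and *CG15247* lay outside at 505, 506 and 509 bp.

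The feature under the summit changed with distance. A 5′ UTR exon of the gene held 184 summits (71.6%, interval 65.7% to 77.0%), an intron held 59 (23.0%, interval 17.96% to 28.6%) and a coding exon held 14 (5.45%, interval 3.01% to 8.97%). Within 100 bp, 137 of 138 summits lay in a 5′ UTR exon and none lay in an intron. Beyond 100 bp, 47 of 119 (39.5%) lay in a 5′ UTR exon, 59 (49.6%) in an intron and 13 (10.9%) in a coding exon. Shares at the same distances in promoters with no summit are not given, so these counts cannot tell members from other promoters. Each of the 59 intronic summits lay past the end of the first exon of the transcripts that start at the nearest TSS, by 8 to 453 bp and by 159 bp in the median. The members in coding exons include *scny*, which encodes a deubiquitinase, and *pros*, which encodes the homeodomain protein Prospero of neural cell fate. Their summits lay 119 and 131 bp after the TSS, and both genes were chosen after their values were seen.

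**Figure D1:**
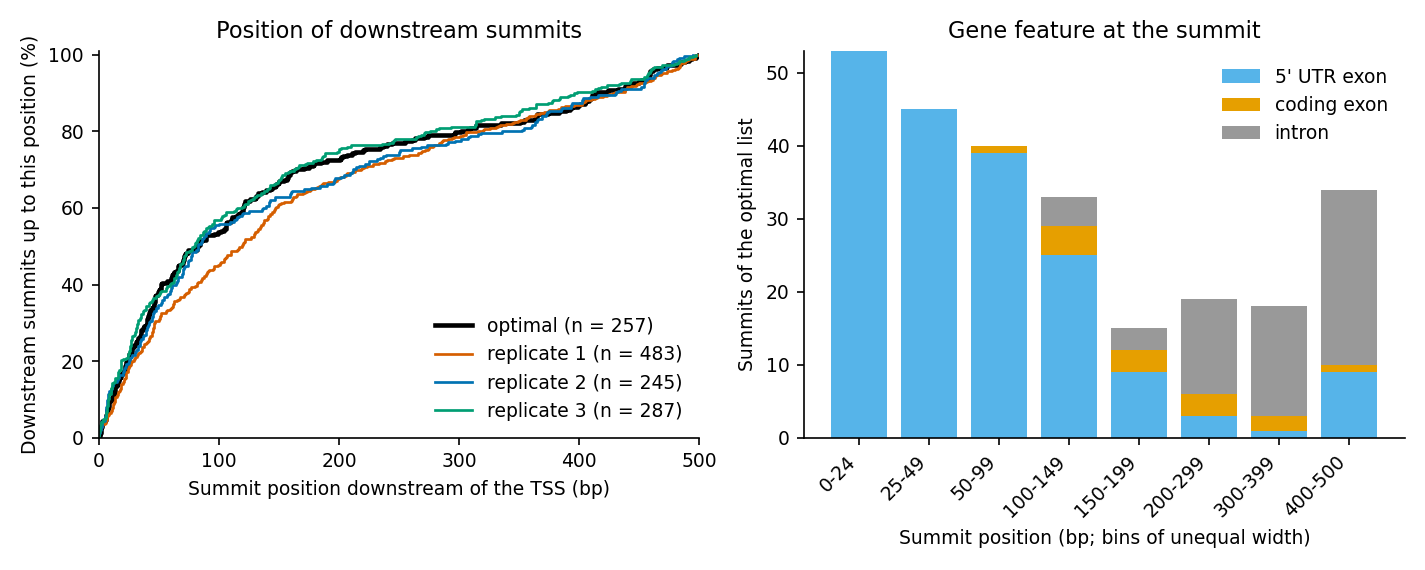
Left, cumulative share (%) of downstream summits against position after the TSS (bp) in the optimal list and among the highest peaks of each replicate; right, number of optimal-list summits by position bin (bp, unequal widths) and gene feature. The curve of replicate 1 runs lowest at 100 bp, with 45.1% of its summits reached, and introns appear only in bins beyond 100 bp.

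Replicate summits were close to those of the optimal list where the peaks matched. A match was an overlap of at least 1 bp with one of these highest peaks of the replicate. The median distance between matched summits was 19.5 bp in replicate 1 (n = 212), 11 bp in replicate 2 (n = 185) and 8 bp in replicate 3 (n = 204). In the gene's direction the median shift was 1, −1 and 0 bp. The matched replicate summit was still at or downstream of the same TSS for 90.1%, 87.0% and 90.7% of members. Of the 136 members matched in all 3 replicates, 106 (77.9%) were downstream in all 3, while 673 of the 731 upstream summits so matched (92.1%) were upstream in all 3. Of the others, 20 lay before the TSS in 1 replicate and 10 in 2 replicates, and none in all 3.

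Several members had more than 1 start nearby, of their own gene or of another gene on the same strand. At least 2 TSSs lay within 500 bp for 75 downstream summits (29.2%), against 186 upstream ones (17.3%). The difference had the same sign in each replicate, at 5.51, 10.5 and 11.3 percentage points (9.10 ± 3.13, SD, n = 3), and was 10.9 points over replicates 2 and 3. These counts use the same starts and the same 500 bp window that set the side of a summit. The contrast is therefore a description of what the rule selects, and its shared sign in the replicates adds no support. For 58 members (22.6%) a further TSS of the same strand lay ahead of the summit, so that the summit lay between starts. A further one-strand summit upstream of the TSS was present in 32 of the 253 genes (12.6%), among them *Eip75B*, *ph-p*, *pAbp* and *cnc*. Starts of genes of other RNA classes were rarely close, with 2 within 100 bp of a member's summit and 13 within 500 bp. The closest, an antisense RNA, started 14 bp from the summit of *SCOT*.

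Downstream summits had lower signal ranks than upstream ones in every replicate. Signal was used only as a rank, since its scale is not given. In each replicate's own list the median signal percentile of downstream summits was 37.8, 33.5 and 40.7 in replicates 1, 2 and 3, against 56.4, 53.4 and 54.98 for upstream summits. Downstream summits averaged 37.3 ± 3.63 and upstream summits 54.9 ± 1.48 (SD, n = 3 each). The difference was −17.6 ± 2.96 percentiles, lower in 3 of 3 replicates, and −17.1 without replicate 1. The exact two-sided sign-flip test gave p = 0.25, which is the smallest p that 3 replicates allow. In the optimal list the median rank was 2496 for downstream summits, against 1769 for upstream ones. The highest 20% of the list held 28 downstream summits (10.9%) and 258 upstream ones (24.0%), and the lowest 20% held 81 (31.5%) and 182 (16.9%). Members within 100 bp of the TSS had a median rank of 2645 and those beyond it a median rank of 2182.

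Recovery by replicate followed a different pattern in replicate 1. It matched 82.5% of downstream and 82.0% of upstream summits, a difference of 0.52 percentage points. Replicate 2 matched 71.98% and 87.0%, and replicate 3 matched 79.4% and 89.8%, differences of −15.0 and −10.4 points. All 3 replicates matched 136 downstream summits (52.9%), against 731 upstream ones (67.9%). The difference of −15.0 points became 1.60 points in the higher-signal 50% of the optimal list, and 0.54 points when the 30000 peaks of each replicate's whole list could match, so its sign depended on which peaks were compared.

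**Figure D2:**
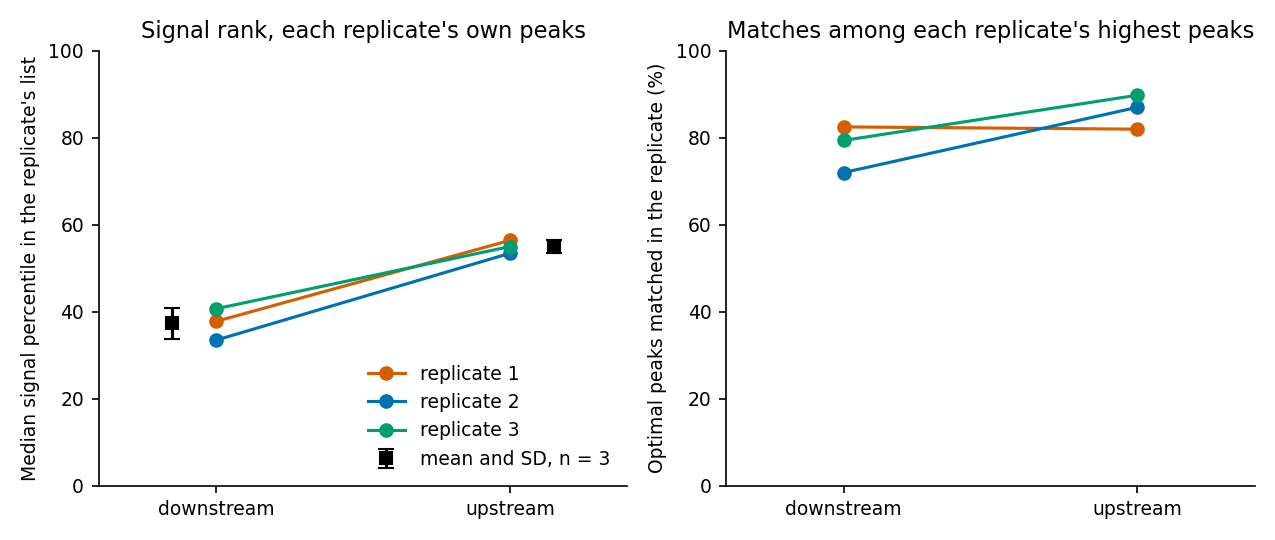
Left, median signal percentile of downstream and upstream one-strand summits among each replicate's highest peaks, joined by replicate, with the mean and SD as squares; right, share (%) of optimal-list summits of each class matched in each replicate. Downstream medians lie between 33.5 and 40.7 and upstream ones between 53.4 and 56.4, while the matched shares in replicate 1 are 82.5% and 82.0%.

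A few downstream summits were among the strongest peaks of the study, with similar ranks in each replicate. *PNPase*, which encodes a mitochondrial exoribonuclease, had its peak on 3R from 31404493 to 31404836, with the summit 71 bp after the TSS, in a 5′ UTR exon. It ranked 6 in the optimal list, and 8, 6 and 7 in replicates 1, 2 and 3. *GstE13*, a glutathione S-transferase gene, had its summit 82 bp after the TSS and ranked 25, and 30, 21 and 27 in the replicates. The replicate summits of *PNPase* lay 90, 71 and 69 bp after the TSS and those of *GstE13* 62, 77 and 82 bp after it, so both were downstream of that TSS in all 3. For each of these genes a further TSS of the same strand lay ahead of the summit, within 500 bp. *CG31612* ranked 112, with replicate ranks of 174, 95 and 105, and its summit lay 458 bp into the gene, in an intron on 2L from 21794811 to 21795093. *ph-p*, which encodes a Polycomb protein, ranked 171, with replicate ranks of 312, 140 and 131, and its summit at 414 bp lay in a 5′ UTR exon on X from 2137708 to 2138088. *rudhira*, known for its role in blood cells, ranked 174, with close replicate ranks of 185, 178 and 188, and its summit at 261 bp lay in an intron.

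The other members among the 25 highest matched in all 3 replicates ranked from 191 to 662. Of the 25, 19 summits lay in a 5′ UTR exon and 6 in an intron, and 11 lay within 100 bp of the TSS. They include regulators such as *Eip75B*, an ecdysone-induced nuclear receptor (rank 272, at 70 bp), *CHES-1-like*, a forkhead factor (rank 375, at 222 bp), and *zf30C*, a zinc finger gene (rank 436, at 44 bp). *Trl*, which encodes the GAGA factor, ranked 624, with 679, 497 and 679 in the replicates. Its summit lay 139 bp after the TSS, and at 138, 137 and 185 bp in the replicates. Genes of membrane proteins were *Ptp4E*, a receptor tyrosine phosphatase (rank 217, at 383 bp), and *Trpm*, a cation channel (rank 223, at 158 bp). Others of this kind were *scramb2*, a phospholipid scramblase (rank 289, at 365 bp), and *Cftr*, a chloride channel (rank 342, at 213 bp). *amn*, a neuropeptide gene, ranked 432 with its summit at 459 bp, and *egh*, a glycosyltransferase gene, ranked 658 at 363 bp. *Sqor* is a sulfide oxidation enzyme gene (rank 344, at 13 bp) and *Ufsp1* a protease gene (rank 191, at 22 bp). *Karybeta3*, a nuclear import receptor gene (rank 662, at 147 bp), completes those with symbols other than CG numbers, beside *RpL30*. *CG12316*, *CG4497*, *CG9399*, *CG5335*, *CG18622* and *CG33695* ranked 206, 221, 245, 473, 548 and 628. In 3 of the 25 a replicate summit lay before the TSS. *CG4497*, at 43 bp in the optimal list, lay at −28 bp in replicate 1, and *CG33695*, at 13 bp, lay at −3 bp in replicate 3. *CG5335*, at 5 bp, lay at −18 and −1 bp in replicates 2 and 3. A further TSS of the same strand lay ahead of the summits of *Ufsp1*, *CG12316*, *CG4497*, *CG9399*, *Sqor*, *RpL30*, *CG18622* and *CG33695*. The lowest rank that any of the 25 had in a replicate was 1137, for *egh* in replicate 2.

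**Figure D3:**
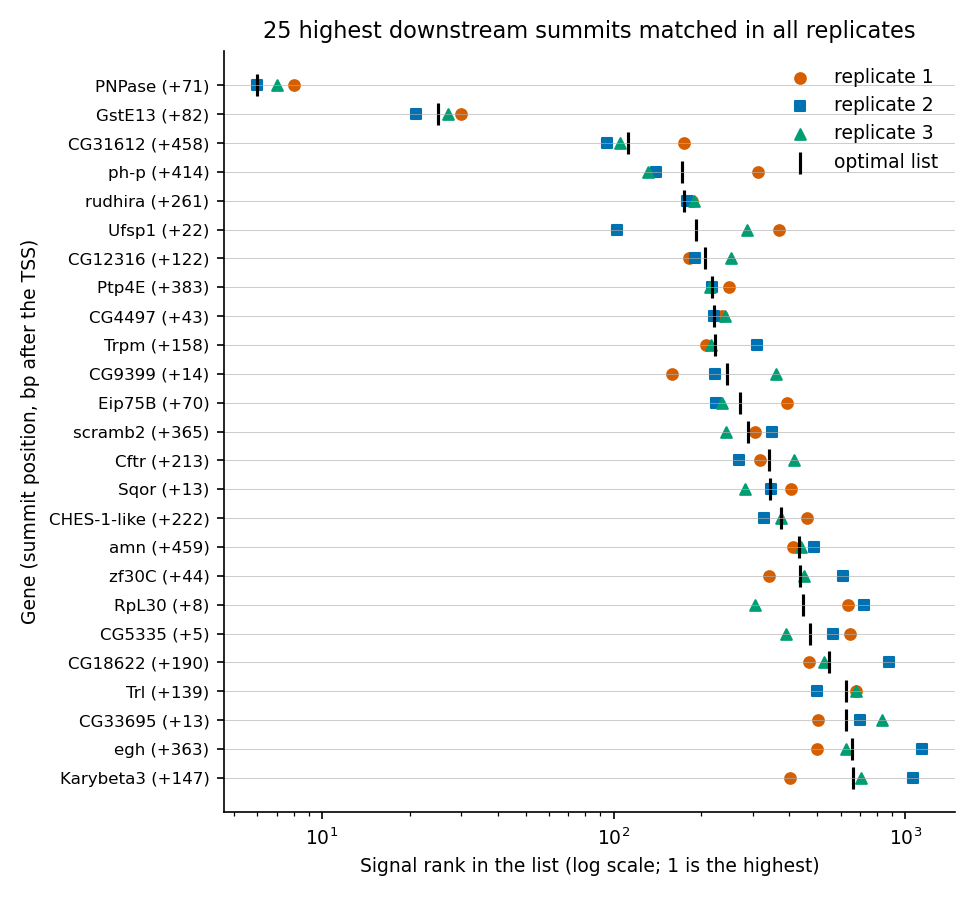
Signal rank (log scale, 1 is the highest) in the optimal list and in each replicate for the 25 highest downstream summits matched in all 3 replicates, with the summit position in bp after the TSS beside each gene. *PNPase* ranks 6 to 8 in every list, and ranks spread more at the lower end, with *egh* at 499, 1137 and 626 in replicates 1, 2 and 3.

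Ribosomal protein genes were among the genes with downstream summits, all of them very near the start. Of 93 cytoplasmic ribosomal protein genes, 9 (9.68%) had a downstream summit and 23 (24.7%) an upstream one, beside 253 (1.81%) and 1002 (7.19%) of all 13945 protein-coding genes. The median position of their downstream summits was 8 bp. *RpL30*, *RpS4*, *RpS3A* and *RpL8* had the highest signal, with summits 8, 28, 6 and 1 bp after the TSS. *RpL30* ranked 447, and 634, 720 and 306 in replicates 1, 2 and 3. *RpS4* ranked 803, with a wider spread of 484, 2379 and 609. *RpL7A*, *RpS30*, *RpL39*, *RpL12* and *RpLP2* ranked from 2496 to 3597. *RpL39* and *RpL12* ranked 14666 and 10918 in replicate 2, far below the other replicates, so these members are weak there. *RpLP2* ranked 4934 in replicate 2 and *RpS30* ranked 5548 in replicate 3. With summits this close to the TSS, the side on which they fall is within the shift between replicates. The 4-mer CTTT, read on the gene strand and starting from 5 bp before to 5 bp after the TSS, was present at 7.39% of members' TSSs, 6.23% of upstream-summit TSSs and 5.66% of TSSs of promoters with no summit. Translation factor genes had a downstream summit in 4 of 55 cases (7.27%) and an upstream one in 11. These were *pAbp*, the poly(A)-binding protein gene (rank 730, in an intron at 482 bp), *eEF2* (rank 1233, at 20 bp), *eIF4A* (rank 2139, at 114 bp) and *eIF4E1* (rank 2438, at 47 bp).

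Signalling genes were the other lists with several members, at lower ranks. Of all 13945 protein-coding genes, 1.81% had a downstream summit and 7.19% an upstream one. Of 42 genes of the Wnt, Hedgehog, Dpp and Notch pathways, 5 (11.9%) had a downstream summit and 4 (9.52%) an upstream one. The downstream ones were *pan*, the transcription factor of Wnt signalling (rank 2360), *kuz*, a protease that cleaves Notch (rank 3111), *tkv*, a Dpp receptor (rank 3434), *mam*, a Notch coactivator (rank 3467), and *arr*, a Wnt co-receptor (rank 3545). Of 38 genes of receptor tyrosine kinase and Ras signalling, 5 (13.2%) had a downstream summit and 9 (23.7%) an upstream one. These were *Pi3K92E* (rank 2104), *Pvr*, a receptor (rank 2611), *Lk6*, a kinase (rank 2734), *aop*, an Ets repressor (rank 3571), and *rho*, a protease that releases the ligand Spitz (rank 3812). *Lk6* ranked 4305 in replicate 2, and both *aop* and *rho* were uneven across replicates. *aop* ranked 12977, 9791 and 2264 in replicates 1, 2 and 3, while the peak of *rho* was not overlapped in replicate 1 and ranked 2585 and 2535 in replicates 2 and 3. Since *rho* is also in the tracheal list, it was the 1 downstream member of those 23 genes. The head, gap, pair-rule and Hox list, in which Ems itself acts, had *cnc* as its 1 downstream member of 37 genes, with rank 1463 and replicate ranks of 1650, 1799 and 1642, in an intron at 411 bp.

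The remaining lists had 3 or fewer downstream members. Cytoskeletal genes had 3 of 38, namely *sqh*, a myosin light chain gene (rank 1530), *alphaTub84B*, an alpha-tubulin gene (rank 1743), and *jar*, the myosin VI gene (rank 3316). Blood and immune genes had *Stat92E* (rank 2082) and *Tl*, the Toll receptor gene (rank 3409), of 23. Polycomb and trithorax genes had *ph-p* and *tna* (rank 3767) of 30. Respiratory chain genes had *ND-B22* (rank 2860) and *UQCR-14* (rank 3793) of 87, and general transcription and Mediator genes had *Cdk8* (rank 3764) and *Trf2* (rank 3821) of 63. Of these, *Tl* ranked 10698 in replicate 2 and *UQCR-14* ranked 10000 in replicate 1. Single members were *B52*, a splicing factor gene (rank 1875), of 29 spliceosome genes, *Trl* of 20 insulator and promoter architecture genes, *Dp*, an E2F partner gene (rank 1051), of 46 cell cycle genes, and *Sec61gamma* (rank 3816, and 9702 in replicate 2) of 48 endoplasmic reticulum and Golgi genes. No downstream summit fell on the 75 mitochondrial ribosomal protein, 33 aminoacyl-tRNA synthetase, 48 proteasome, 40 chaperone, 27 chromatin or 42 mRNA export and decay genes listed, which had 4, 2, 2, 6, 4 and 1 genes with upstream summits. Beside these counts, 1.81% of all genes had a downstream summit and 7.19% an upstream one. The counts of all lists are a description, with no test.

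The sequence under downstream summits was richer in G and C than that under upstream ones. In windows reaching 100 bp to either side of the summit, GC content was 46.5%, 41.8% and 43.8% downstream in replicates 1, 2 and 3, and 39.5%, 37.6% and 38.1% upstream. Downstream windows averaged 44.0% ± 2.34 and upstream windows 38.4% ± 0.970 (SD, n = 3 each). The difference was 5.65 ± 1.38 percentage points, higher downstream in 3 of 3 replicates, and 4.96 without replicate 1 (exact two-sided sign-flip p = 0.25, the smallest that 3 replicates allow). With windows centred on the nearest TSS instead, the difference was −2.13 ± 1.04 points. In promoters with no summit within 1000 bp, taken at the start of the gene record (n = 8638), GC content was 42.2% at the TSS and 44.2% at 83 bp after it, beside 43.1% under the 257 downstream summits. The sign of the GC difference therefore depended on where the window was centred.

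All 2080 6-mers, with a 6-mer and its reverse complement counted as 1, were compared by the exact two-sided Fisher test with Benjamini-Hochberg adjustment at 0.05. Of these, 48 (2.31%) were called more frequent at downstream than at upstream summits and 32 (1.54%) less frequent, and 389 had an unadjusted p under 0.05. The p-values rest on peaks, which are not replicates. The 6-mers called higher were rich in G and C, with at most 2 A or T letters in 41 of 48, and all 32 called lower had at least 4 A or T. CGGACG, the DPE-type sequence shown above, had the largest odds ratio among those called. It was present at 8.56% of downstream and 2.51% of upstream summits (log2 odds ratio 1.87, exact Fisher test, adjusted p = 0.00372). In replicates 1, 2 and 3 it was present at 7.66%, 3.67% and 9.06% of downstream and 3.37%, 2.36% and 3.04% of upstream summits. The log2 odds ratios there were 1.25, 0.705 and 1.67. GCGTCC followed, at 6.61% of downstream and 2.04% of upstream summits, then CGCGTC at 8.95% and 2.97%. CCACGG stood at 8.95% and 3.07%, and GGACGA at 6.23% and 2.14%. The lowest odds ratio belonged to ATGTTA, present at 6.23% of downstream and 17.5% of upstream summits (log2 odds ratio −1.63, exact Fisher test, adjusted p = 0.000579). TTTAAA stood at 17.9% and 33.4%, and ATTTAA at 26.1% and 44.6%. CATAAG stood at 2.72% and 7.99%, and CTTACA at 4.67% and 11.2%. In no-summit promoters, windows centred 83 bp after the TSS held CGGACG at 6.31%, GCGTCC at 5.67% and CGCGTC at 6.61%. CCACGG was there at 5.86% and GGACGA at 7.37%. ATGTTA was there at 7.64%, TTTAAA at 14.8%, ATTTAA at 21.0%, CATAAG at 5.04% and CTTACA at 7.40%. GGACGA was thus less frequent at members than there, and TTTAAA and ATTTAA were more frequent, with no test.

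The 6-mer calls depended on the centring of the windows. With windows centred on the nearest TSS, an alternative chosen after the data were seen, none of the 2080 was called by the same test, and 124 had an unadjusted p under 0.05. Of the 80 called 6-mers, 37 then kept their direction and 43 did not. CGGACG was present in 10.9% of TSS-centred windows of downstream promoters, 9.20% of those of upstream promoters and 5.27% of those of promoters with no summit. All 80 had the same direction in each of the 3 replicates' own lists, which share peaks with the optimal list. Keeping only optimal-list peaks matched in both other replicates left 1, 5 and 0 calls without replicate 1, 2 and 3, with 156, 170 and 155 downstream summits to test and 198, 228 and 196 6-mers at an unadjusted p under 0.05.

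**Figure D4:**
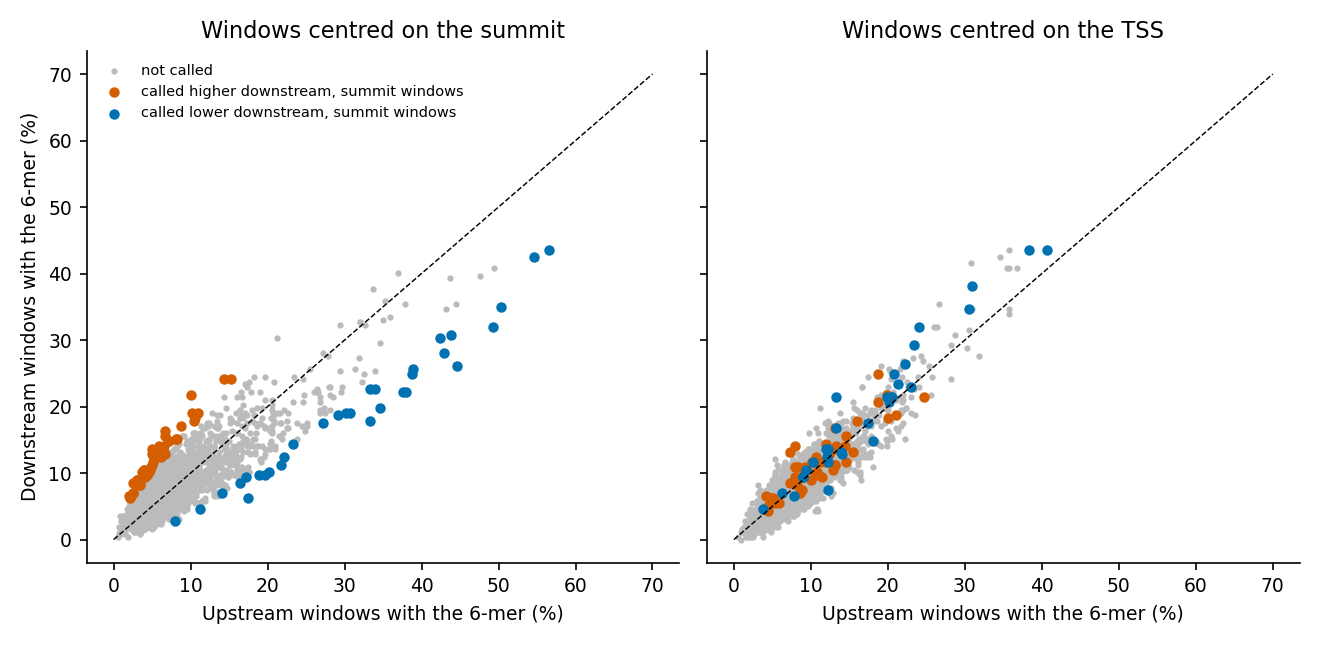
Share (%) of windows of downstream summits holding each of 2080 6-mers against the share for upstream summits, with windows centred on the summit (left) and on the nearest TSS (right); colours mark the 48 and 32 6-mers called higher and lower downstream with summit windows. The coloured points leave the diagonal at the summit and return to it at the TSS, where none was called.

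Against the sequence 500 bp further into the same gene, DRE-type 6-mers were among the few called. By the exact McNemar test over the 257 members, 3 of 2080 6-mers (0.144%) were called higher at the summit and 2 (0.0962%) lower. CGATAG was present at 15.2% of summits and 3.50% of flanks (exact McNemar test, adjusted p = 0.00367), TATCGA at 16.7% and 4.28%, and AAATAT at 39.7% and 19.5%. CGATAG and TATCGA overlap each other and the DRE. At promoters with no summit CGATAG fell with distance too, from 10.5% of windows at 35 bp after the TSS to 4.72% at 244 bp. The comparison sets promoter against gene body, so it cannot tell members from other promoters. AGGAGA (2.33% at summits and 14.01% in flanks) and GGAGCA (5.45% and 17.5%) were lower. With flanks on the upstream side, 15 were called, among them the motif 1 end ACACTG, at 17.9% of summits and 4.28% of flanks, so which 6-mers stood out depended on the side compared. Without replicate 1, 2 and 3 the count against the gene-side flank was 15, 1 and 5.

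Promoters with a downstream summit were then set against the 8638 promoters with no summit, both with windows of the same length centred on the TSS and 1 promoter per gene. This comparison was also added after the data were seen. By the exact Fisher test, 39 of 2080 6-mers (1.88%) were called higher at promoters with a downstream summit and 13 (0.625%) lower. CGATAG was present at 21.3% of them and 10.9% of promoters with no summit (exact Fisher test, adjusted p = 0.00147), GAGAGC at 21.7% and 10.9%, and ACACTG at 20.6% and 11.8%. TATAAA was lower, at 19.8% and 31.1%, as was CCAGGA, at 0.395% and 7.33%. TSS-centred windows of upstream-summit promoters, counted per summit, held CGATAG at 19.1%, ACACTG at 19.1% and TATAAA at 15.6%. The shares of these 6-mers were thus not particular to promoters with a downstream summit. In its usual place, starting 40 to 20 bp before the TSS on the gene strand, TATAAA was found in 3.89% of members (interval 1.88% to 7.04%), 2.97% of upstream-summit promoters and 10.1% of promoters with no summit.

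The fixed motifs are described here by distance from the TSS. The DRE was present within 100 bp of 15 of the 138 near summits (10.9%, interval 6.19% to 17.3%), those within 100 bp of the TSS. None of the 119 far summits had it (interval up to 3.05%). In the own lists of replicates 1, 2 and 3 the DRE was at 5.05%, 13.1% and 8.59% of near summits and at no far summit. It was present at 7.71% of upstream summits, and in no-summit promoters at 4.12% of windows at the median near position, 35 bp, and 0.336% at the median far position, 244 bp. All 16 copies at members began before the TSS, with the median 46.5 bp before it, a place that the windows of far summits, which start after the TSS, do not reach. Motif 1 was present at 10 near summits (7.25%), no far summit and 4.83% of upstream summits, with 3.91% and 0.463% of no-summit windows at these near and far positions. In replicates 1, 2 and 3 its near share was 6.88%, 10.2% and 9.82%, and its far share 0%, 0.926% and 0.806%. CGGACG was present at 11.6% of near and 5.04% of far summits and 2.51% of upstream summits, with 5.81% and 5.21% of no-summit windows at the near and far positions. In replicates 1, 2 and 3 its near share was 9.63%, 6.57% and 13.5%, and its far share 6.04%, 0% and 3.23%. Its 20 copies on the gene strand began 45.5 bp after the TSS in the median. The letters GGACG, starting 15 to 35 bp after the TSS as a DPE does, were found in 3.89% of members, 3.62% of upstream-summit promoters and 2.78% of promoters with no summit. In windows centred on the TSS, the DRE was at 13.0% of near and 6.72% of far members. Motif 1 was there at 9.42% and 7.56%, and CGGACG at 11.6% and 10.1%. The size of these near-far differences therefore depended on where the window was centred.

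For the homeodomain palindrome TAATTA the share was lower at near than at far summits, a difference that was not called. It was present at 5.07% of near summits (7 of 138, interval 2.06% to 10.2%) and 17.6% of far summits (21 of 119, interval 11.3% to 25.7%), beside 13.9% of upstream summits. Promoters with no summit had it in 7.39% of windows at the median near position, 35 bp, and in 7.08% at the median far position, 244 bp. In the replicates' own lists the near share was 5.96%, 9.49% and 5.52% and the far share 9.43%, 13.9% and 12.9%, lower near the TSS in 3 of 3. The near-far difference did not pass the exact Fisher test over all 6-mers (unadjusted p = 0.0021, adjusted p = 0.364), which called none of 2080 and had 143 at an unadjusted p under 0.05. TAATTA at all members, 10.9%, was not called against upstream summits either (exact Fisher test, adjusted p = 0.544). TTTATG, the Caudal type, was at 11.6% of near, 21.8% of far and 20.6% of upstream summits, with 13.4% and 13.3% of no-summit windows at the near and far positions. TAATGA, a homeodomain variant, was at 3.62% of near, 7.56% of far and 11.2% of upstream summits. Its no-summit shares at these positions were 8.30% and 8.62%. GGATTA, the Bicoid type, was at 4.35%, 5.88% and 5.86%, with no-summit shares of 7.40% and 8.58%. At far summits neither of these stood above its no-summit share.

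**Figure D5:**
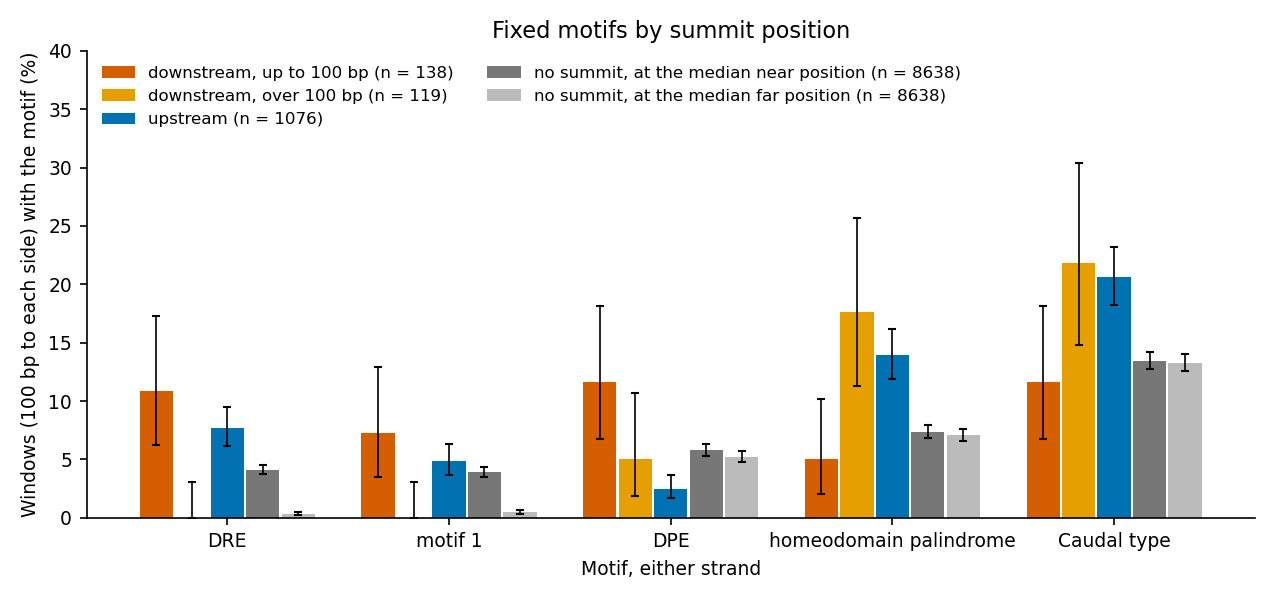
Share (%) of windows (100 bp to either side) holding each fixed motif on either strand, for downstream summits up to 100 bp and over 100 bp from the TSS, upstream summits, and promoters with no summit at the median near and far positions, 35 and 244 bp after the TSS; bars have exact 95% intervals for counting error. The DRE and motif 1 are at 10.9% and 7.25% of near summits and at no far summit, with 4.12% and 3.91% of no-summit windows at the near position, while the homeodomain palindrome is at 5.07% of near and 17.6% of far summits. Windows of far summits start after the TSS. In TSS-centred windows, not drawn, far members hold the DRE and motif 1 at 6.72% and 7.56%.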

How the data were processed

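ChIP-seq peak lists of 3 replicates were used, on dm6, together with the joint and optimal lists. Per the notes deposited with the files, replicate lists were called from each replicate's alignments and a control, and the optimal list was derived from these and the joint list by irreproducible discovery rate. The sources used here name no aligner, peak caller or settings (not given in the sources used here). The signal column, deposited by the authors on a scale not given, ranked the peaks of each list. The authors also deposited −log10 q values, which served 1 alternative. Summits are the deposited offset added to the interval start, and 3359 lie within 1 bp of the middle of the interval, so a position carries the error of that interval. Genes and 19607 TSSs come from Ensembl release 115, and sequence from RefSeq Release 6.

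Replicates are biological per the labels. Means and SDs are over n = 3, with exact sign-flip tests, while 6-mer tests (exact Fisher and McNemar, 0.5 added to counts for odds ratios) rest on peaks. Intervals are exact Clopper-Pearson and cover counting error only. The replicate lists share libraries with the optimal list. Python 3.11.15 with numpy 2.4.6, pandas 2.3.3 and SciPy 1.17.1 was used.

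The members, gene lists and motifs were chosen with earlier results of these data known. Genes named are the 25 highest-signal members matched in all replicates, up to 4 members per gene list (others were added after their values were seen), those at the limits, and holders of fixed motifs. The 6-mers named are the 5 with the highest and the 5 with the lowest odds ratio, and the fixed motifs. Others were named after their values were seen, as was the split at 100 bp. Alternatives covered the promoter window, TSS set, motif window, signal and each replicate.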

Additional observations from a re-analysis of the deposited data

How the results depend on the processing

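The signal percentile difference kept its direction under every alternative run, from −20.03 to −11.5. So did the summit-centred GC difference, from 3.996 to 6.34 points, except with TSS-centred windows, at −2.13. The downstream share lay between 13.6% and 25.2%. The median position was 46.5 and 399 bp with promoter windows of 250 and 1000 bp, 120.5 bp with summits at least 25 bp from the TSS, 136 bp in the higher-signal 50%, and 83.5 to 106 bp without 1 replicate. The difference in matches was −6.79 points with a 1000 bp window, and reversed to 1.60 in the higher-signal 50% and 0.54 with whole replicate lists. Without 1 replicate it was −18.6 to −8.39.

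Counts of 6-mers called against upstream summits (80) were 16 with a 1000 bp window, 51 with 1 TSS per gene, 15 with motif windows of 50 bp to either side, 37 in the gene direction, 8 for summits beyond 100 bp, 0 with TSS-centred windows and 0 in the higher-signal 50% (exact Fisher test, 118 at an unadjusted p under 0.05, 92 downstream summits). They were 0 to 5 without 1 replicate. Against flanks (5), they were 51 and 13 with 250 and 1000 bp windows, 48 with 1 TSS per gene, 3 at 25 bp or more, 0 in the higher-signal 50% (exact McNemar test, 130 unadjusted), 0 and 60 with motif windows of 50 and 200 bp to either side (156 unadjusted for the first), 15 with upstream flanks, and 1 to 15 without 1 replicate. Downstream summits numbered 258 with the 250 bp window, 92 in the higher-signal 50%, and 156, 170 and 155 without replicates 1, 2 and 3. The cause of the changed counts was not tested.

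Among single 6-mers, TSS-centred windows reversed the log2 odds ratios of ATTTAA to 0.34, CATAAG to 0.38, CTTACA to 0.21, GGACGA to −0.015 and TTTAAA to 0.83. With 1 TSS per gene the summits of *PNPase* and *Eip75B* were assigned to another gene, at −576 and −40566 bp. Of the other comparisons of single results with alternatives, 309 kept direction and side of the threshold and 84 lost the call.

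The depth of the libraries is unknown, and no list can show summits below its own threshold. With a single group, replicate numbers pair no samples between groups; summits of both sides were compared within each replicate.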
